A study of Danio rerio with 6 samples.

Results

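Genes through which heart cells read blood flow and stretch were followed in atrial cardiomyocytes (CMs) of the zebrafish embryo: the flow-induced transcription factor genes klf2a and klf2b and the mechanosensitive channel genes piezo1, trpv4 and pkd2. The members were taken by their symbols, and all 5 were found, each as 1 gene of the 23000 in the deposited count table. RNA was sequenced in bulk from wild-type animals at 48 and 72 hours post fertilization (hpf), with 3 libraries at each stage. Every animal carried a blue reporter for atrial CMs (myh6:mTagBFP2), a red reporter for ventricular CMs (myh7:mCherry-NTR) and a green Wnt/β-catenin reporter (7XTCF-Sia:eGFP). Hearts of many animals were pooled, and living cells with strong blue, no green and little or no red signal were sorted, so that a library stands for a pool of sorted cells and not for 1 animal. Replicates 1 and 2 of each stage combined cells from 2 sorters, and replicate 3 came from 1 of them. The labels do not say whether the replicates of a stage came from separate clutches, so the tests measure the spread between these libraries only.

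Blood flow exerts shear stress on the endocardium, the endothelium that lines the heart, and each beat stretches the myocardium around it. Klf2 factors are zinc finger transcription factors that endothelial cells switch on under flow, and in the zebrafish heart klf2a is known from the endocardium of the atrioventricular canal, where it is needed for valve formation. Piezo1 is a cation channel opened directly by membrane tension. Trpv4 is a calcium-permeable channel of the TRP family that responds to osmotic swelling and to flow, and Polycystin-2, the product of pkd2, is a TRP-like channel that works with Polycystin-1 and resides in part on the primary cilium. In zebrafish Trpv4 and Pkd2 have been placed upstream of klf2a in the endocardium. Most of this knowledge comes from endothelial cells, which the sort was not meant to keep.

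Library totals ran from 3694451 to 5629941 counts at 48 hpf and from 3577234 to 4541886 at 72 hpf, and 15182 to 17924 genes had at least 1 count in a library. Replicate 3 of 72 hpf detected the fewest genes and replicate 2 of 48 hpf the most. Levels are given as normalised CPM, counts per 1000000 after edgeR's TMM scaling, and stage differences as log2 fold changes of 72 hpf relative to 48 hpf, with a standard error (SE). Counting intervals are exact 95% Poisson intervals and cover counting error only. Levels are not compared between genes, because no transcript lengths were used. The labelled cell type was checked by its markers: pan-cardiomyocyte markers (11 genes of the table) summed to 6590 to 8540 normalised CPM at 48 hpf and to 8190 to 8630 at 72 hpf. The 7 atrial markers summed to between 2280 and 3290 normalised CPM at 48 hpf and between 2810 and 3310 at 72 hpf. Some abundant markers had nearly constant counts over the libraries (myl7 1708 to 1893, myh6 6919 to 7877), though ttn.2 did not (10668 to 18298). How far duplicate removal compressed them was not tested, so the sums show presence and not the share of CMs. The sum of the ventricular markers was lower at the later stage without overlap, at 1020 to 1700 and 570 to 826 normalised CPM. Most of it came from myh7, the gene behind the red reporter. Of the 5 tested, 3 had a lower estimate, and 2 (myh7 and myh7l) did not overlap between the stages, as 9.32% of all genes tested. In contrast, hey2 had means of 2.32 and 11.8 normalised CPM, the log2 fold change of irx2a was 0.0, and irx4a had no count. In bulk RNA, fewer cells of a type and less RNA per cell cannot be told apart.

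None of the 5 genes passed the test of the stages. edgeR's quasi-likelihood test, adjusted over the 16100 genes with a mean normalised count above 5, called 0 of the 5 at an adjusted p below 0.05 and a change beyond 1.5-fold, where it called 0.00621% of all genes tested. At an unadjusted p below 0.05 the count was 1 of 5 (trpv4, lower at 72 hpf), against 5.61% of all genes in that direction and 8.74% in either. DESeq2 called 0 of 5, against 3.92% of all genes, and had 2 of 5 at an unadjusted p below 0.05 (piezo1 and trpv4), and limma voom had 0 of 5 in both. The estimate was lower at 72 hpf for klf2a, klf2b, piezo1 and trpv4 and higher for pkd2, as it was lower for 51.5% of all genes, and the median of the 5 was -0.50 against -0.02 for all genes.

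The endocardial flow factor klf2a (ENSDARG00000042667, danRer11 chromosome 22 from 15898221 to 15900919, plus strand) was present in every library. Its normalised CPM were 127, 229 and 113 in replicates 1, 2 and 3 at 48 hpf, from 597, 1283 and 413 counts. At 72 hpf they were 99.1, 200 and 119, from 459, 893 and 426 counts. The stages overlapped, and replicate 2 was the highest of its stage both times, with counting intervals (216 to 241 and 187 to 213) clear of the other libraries. Such an order, with replicate 2 on top in both stages, was seen in 14.4% of the genes tested. The stage means were 156 ± 63.0 and 139 ± 53.1 normalised CPM (SD, n = 3 each). The log2 fold change of klf2a was -0.17 with an SE of 0.35 (adjusted p = 0.955, edgeR), and the exact permutation test of the means gave p = 0.6 (two-sided), where 3 against 3 libraries allow no p under 0.1. The estimate changed sign without replicate 2 of 48 hpf (0.22) and without replicate 1 of 72 hpf (0.03).

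**Figure D1:**
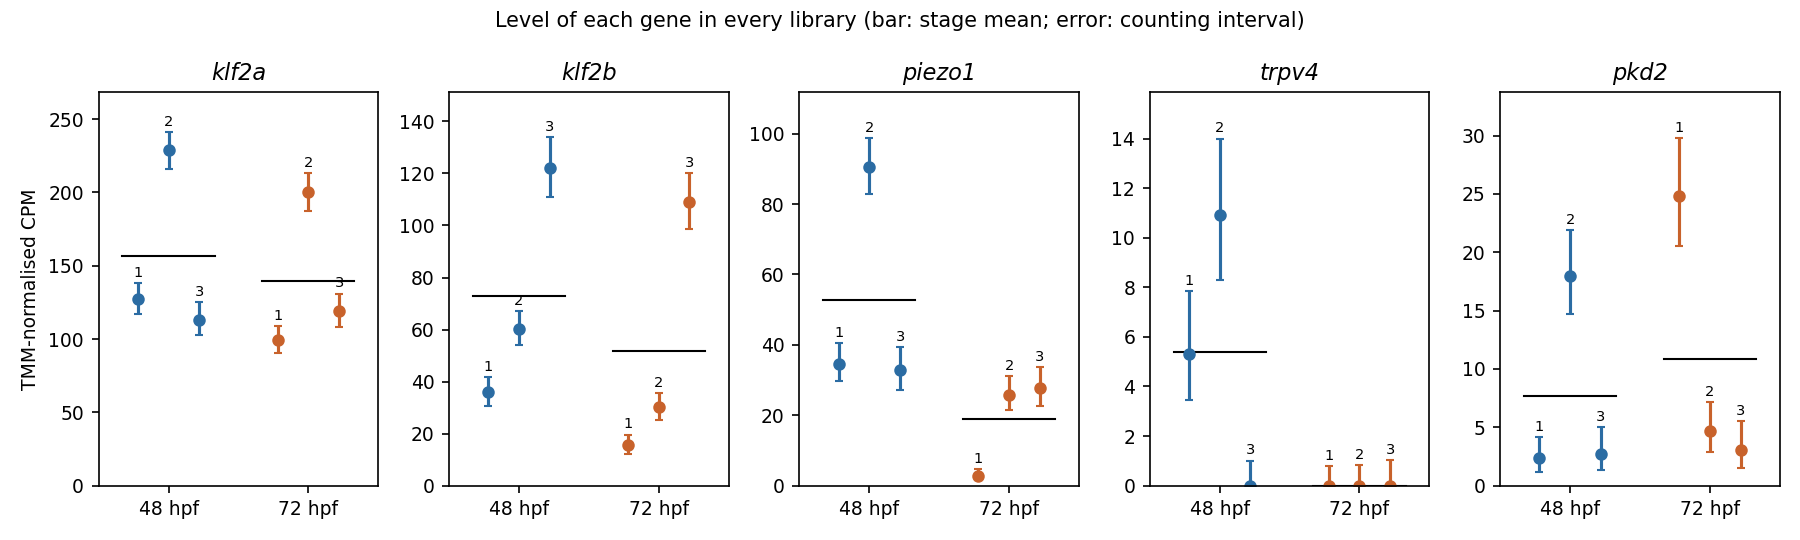
Normalised CPM of klf2a, klf2b, piezo1, trpv4 and pkd2 (one panel each, linear axes from 0) in the 3 libraries of 48 hpf (blue) and of 72 hpf (orange), with replicate numbers above the points. Error bars are exact 95% Poisson counting intervals and black lines are stage means. Only for piezo1 do all 48 hpf libraries lie above all 72 hpf libraries, and trpv4 is at 0 in 4 of the 6.

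Its paralog klf2b (ENSDARG00000040432, chromosome 2 from 55665095 to 55673225, plus strand), which in zebrafish is also known from the epidermis, varied more within a stage than between the stages. It had 36.0, 60.4 and 122 normalised CPM in replicates 1, 2 and 3 at 48 hpf, from 169, 339 and 447 counts. At 72 hpf it had 15.6, 30.2 and 109 normalised CPM, from 72, 135 and 390 counts. Replicate 3 was the highest library at both stages, an order that 14.0% of the tested genes shared, and the highest library was 3.4 times the lowest at 48 hpf and 7.01 times at 72 hpf. The log2 fold change of klf2b was -0.50 with an SE of 0.75 (adjusted p = 0.925, edgeR). The replicates sorted on both instruments had means of 48.2 and 22.9 normalised CPM (log2 fold change -1.08, adjusted p = 0.677 in edgeR on those 4 libraries), and replicate 3 alone had 122 and 109. Without replicate 3 of 48 hpf the estimate was 0.10, and without replicate 3 of 72 hpf it was -1.67 (adjusted p = 0.684, edgeR).

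The balance between the paralogs is a ratio within a library and does not depend on scaling. It is a share of counts, not of transcripts. Of the klf2a and klf2b counts together, klf2a held 77.9%, 79.1% and 48.0% in the 48 hpf libraries (replicates in order). The 72 hpf libraries had shares of 86.4%, 86.9% and 52.2%. Replicates 1 and 2 of a stage had overlapping exact 95% Clopper-Pearson intervals, whereas both replicate 3 libraries, with intervals of 44.6 to 51.4% and 48.7 to 55.7%, lay apart from them. The stages overlapped, and the means of 68.4% ± 17.6 and 75.2% ± 19.9 (SD, n = 3) did not differ beyond the spread (difference 6.82 points, exact permutation p = 0.5, two-sided). The summed level of both genes was 163, 289 and 236 normalised CPM at 48 hpf and 115, 230 and 228 at 72 hpf. Without replicate 3 of 48 hpf the difference in share turned to -3.35 points. Among libraries sorted alike the share was 8.14 points higher at 72 hpf in replicates 1 and 2 (means of 78.5% and 86.7%), with intervals that did not overlap between the stages, and 4.18 points higher in replicate 3. The pooled test takes no account of this split, and the exact permutation test of 2 against 2 libraries gave p = 0.333, the smallest it can give. Since replicate 3 was sorted on 1 instrument and the others on both, library and sorting cannot be told apart here. Multi-mapping reads were removed before counting, and whether this took reads from stretches shared by the paralogs was not tested.

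**Figure D2:**
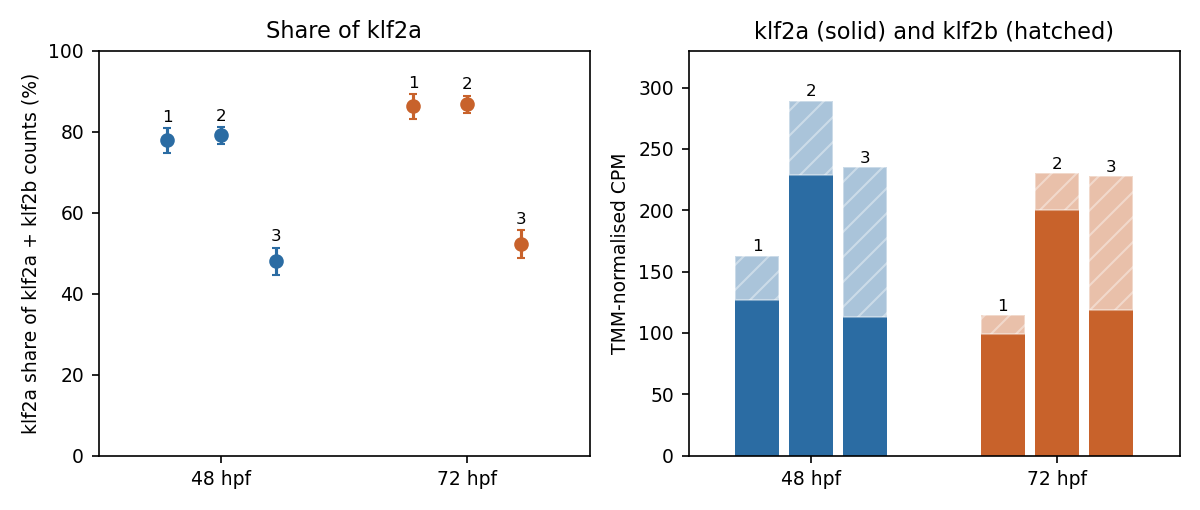
Left, the share of klf2a in the klf2a plus klf2b counts of each library in percent, with exact 95% binomial intervals. Right, stacked bars of klf2a (solid) and klf2b (hatched) in normalised CPM, with the replicate number above each bar. The replicate 3 libraries stand near 50% (48.0% and 52.2%), the other 4 between 77.9% and 86.9%.

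The channel gene piezo1 (ENSDARG00000076870, chromosome 7 from 55328420 to 55454406, minus strand) was the only member whose stages did not overlap. It had 34.7, 90.5 and 32.9 normalised CPM at 48 hpf in replicates 1, 2 and 3, from 163, 508 and 120 counts. At 72 hpf it had 2.81, 25.9 and 27.7, from 13, 116 and 99 counts. All 48 hpf libraries thus stood above all 72 hpf libraries, as was so for 9.32% of all genes tested, but the 2 nearest libraries, replicate 3 of each stage, had overlapping counting intervals (27.3 to 39.3 and 22.5 to 33.7). The stage means of piezo1 were 52.7 ± 32.8 and 18.8 ± 13.9 normalised CPM (SD, n = 3 each), a ratio of 2.80. Its log2 fold change was -1.49 with an SE of 0.83 (p = 0.114, adjusted p = 0.629, edgeR), and the exact permutation p of 0.1 is the smallest that the design can give. The difference rested in part on replicate 1 of 72 hpf, without which the estimate was -0.97, and on replicate 2 of 48 hpf, without which it was -0.84. DESeq2 gave an adjusted p of 0.256 for piezo1. The replicates from both sorters had means of 62.6 and 14.4 normalised CPM, and replicate 3 had 32.9 and 27.7, so that the gap was 4.36-fold in the former and 1.19-fold in the latter.

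The osmosensitive channel gene trpv4 (ENSDARG00000061941, chromosome 5 from 19795977 to 19833310, minus strand) was detected at 48 hpf only. Replicates 1, 2 and 3 of 48 hpf held 25, 61 and 0 counts, or 5.32, 10.9 and 0 normalised CPM. Every 72 hpf library held 0 counts. The earlier stage was itself divided, since replicate 3 of 48 hpf held no count, where 3 counts would have been 0.812 CPM. Over the stage, 86 counts of 14047416 gave 6.12 CPM of the library totals at 48 hpf. A floor of 3 counts over all 12583794 counts of 72 hpf is 0.238 CPM, and the pooled 48 hpf level was 25.7 times that floor. This ratio compares pooled counts, carries no replicate error and is no lower bound on the change. It was 20.5-fold at the lower counting limit of the 48 hpf counts, 12.5-fold without replicate 2 of 48 hpf, 27.4-fold without replicate 1 and 34.8-fold without replicate 3. The fitted log2 fold change of -7.59 (SE 2.89) depends on the prior count and is no bound, and its p of 0.0433 became 0.564 after adjustment over all genes (edgeR). Across the libraries the exact permutation p was 0.4. With DESeq2 the adjusted p of trpv4 was 0.0977. The gene passed the filter on low counts, at a mean normalised count of 12, through 2 libraries of 48 hpf alone, and fits without replicate 2 of 48 hpf or with edgeR's filterByExpr did not test it. All 72 hpf libraries were at 0 for 2.82% of all genes tested. Such zeros were more frequent at the level of trpv4: of the 1472 tested genes with a mean normalised count from 10 to 20, 13.6% were at 0 in at least 4 of the 6 libraries and 9.65% were at 0 in all 72 hpf libraries.

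The Polycystin-2 gene pkd2 (ENSDARG00000014098, chromosome 1 from 50538839 to 50557030, plus strand) was low in most libraries and high in 1 library of each stage. Its normalised CPM were 2.34, 18 and 2.74 at 48 hpf (11, 101 and 10 counts in replicates 1, 2 and 3) and 24.8, 4.69 and 3.08 at 72 hpf (115, 21 and 11 counts). The high libraries were replicate 2 at 48 hpf and replicate 1 at 72 hpf, with counting intervals of 14.7 to 21.9 and 20.5 to 29.8 normalised CPM, and the other 4 had upper bounds of at most 7.17. The highest library was thus 7.68 times the lowest at 48 hpf and 8.07 times at 72 hpf, and of the 1747 tested genes with a mean normalised count from 30 to 60, 31.3% exceeded 5 times in both stages. The log2 fold change of pkd2 was 0.49 with an SE of 1.29 (adjusted p = 0.966, edgeR). It was -0.98 without replicate 1 of 72 hpf and 2.09 without replicate 2 of 48 hpf, so that the direction differed with the high library left out. No other gene of the table overlaps any of the 5 members on danRer11.

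**Figure D3:**
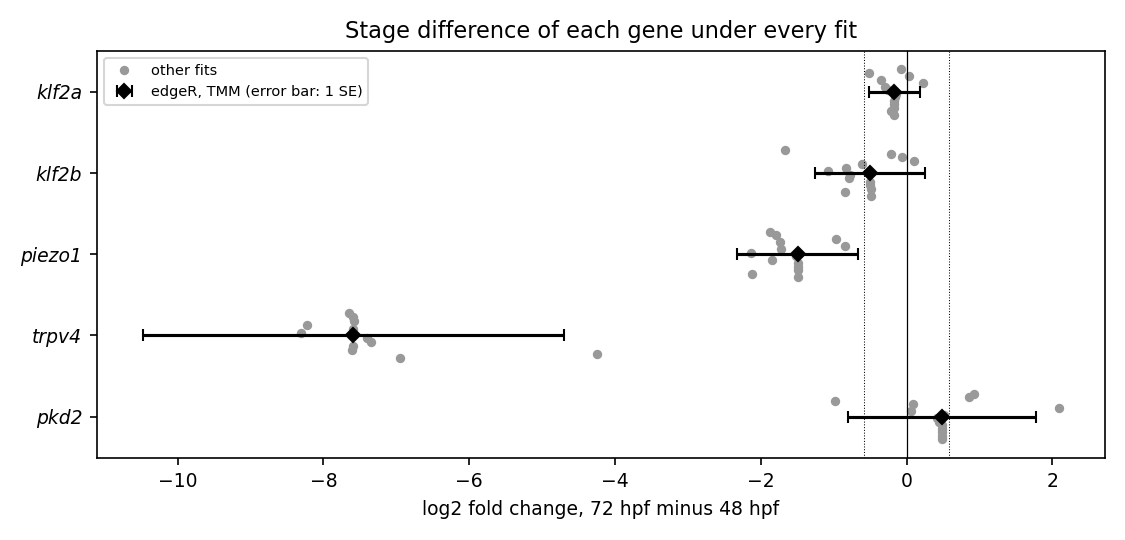
log2 fold change of each member, 72 hpf minus 48 hpf. Diamonds are the edgeR fit with TMM scaling and 1 SE, grey points the other fits, and dotted lines a 1.5-fold change in either direction. Points for klf2a, klf2b and pkd2 fall on both sides of 0, and those for piezo1 (-2.13 to -0.84) on the lower side. Those for trpv4 (-8.31 to -4.25) could only lie there, since every 72 hpf library held 0 counts. Fits that did not test trpv4 are not drawn.

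For each member the 3 genes with the most similar profile over the 6 libraries were sought among the 11036 genes with a mean normalised count of at least 50, by the root mean square difference of mean-centred log2(normalised CPM + 0.5). For klf2a these were dhx29 (0.08), zhx3 (0.09) and kmt2cb (0.10), where the median gene was 0.62 away. For klf2b they were dok1b (0.35), pot1 (0.35) and ankfy1 (0.37), with a median of 1.13. The profile of piezo1 was nearest to lmo4a (0.34), itga4 (0.38) and hsbp1a (0.41). Each of these had its lowest library in replicate 1 of 72 hpf, with itga4 at 58 counts there against 225 to 1472 elsewhere. That follows from their choice by profile and is no separate observation on that library. For trpv4 the nearest was amh (0.47), with 206, 393 and 28 counts at 48 hpf, against 15, 18 and 20 at 72 hpf, followed by ptprea (0.79) and mpped2a (0.87). For pkd2 they were si:dkey-230p4.1 (0.45), CR933559.1 (0.54) and cluap1 (0.56).

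Beside piezo1 the table lists 1 further Piezo gene, piezo2a.2, whose counts of 316, 842 and 54 at 48 hpf and 16, 323 and 282 at 72 hpf also had their lowest value in replicate 1 of 72 hpf (log2 fold change -0.59, adjusted p = 0.941, edgeR). Of 14 listed TRP channel genes tied to stretch, shear or osmotic force, 10 had a count in any library, and 6 of those had counts at 48 hpf and none at 72 hpf: trpv4, trpc4a, trpm4a, trpc1, trpv6 and trpm4b.2. None of the 6 had a count in replicate 3 of 48 hpf, a library at 0 for 25.6% of the genes with any count. Counts were sparse: trpc4a, trpc1 and trpv6 had them in 1 library only (36, 15 and 6), and trpm4a and trpm4b.2 had at most 24 and 5 in a library. Over the whole table, 10.2% of the 21322 genes with any count had counts at 48 hpf and none at 72 hpf, and 5.35% the reverse. These shares are not matched to the low counts of the TRP genes. Another TRP gene, trpv1, had 16, 35 and 2 counts at 48 hpf, against 1, 1 and 0 at 72 hpf. The genes that had counts throughout were trpm7, a channel joined to a kinase, with 164 to 373 counts at 48 hpf and 256 to 448 at 72 hpf, and trpa1a, with 85 to 143 and 79 to 139. The remaining gene, trpc6a, had 91, 128 and 11 counts at 48 hpf, against 0, 64 and 120 at 72 hpf (log2 fold change 0.08, adjusted p = 0.995, edgeR). Of the 6 TRP genes tested edgeR called 0, and DESeq2 0. At an unadjusted p below 0.05 edgeR had trpv4 alone, which passed the filter through 48 hpf libraries only. Lower at that p were 5.61% of all genes, a share not matched to the level of trpv4. Of the 3 listed stretch-gated two-pore potassium channel genes, kcnk2b had no count in any library. At 48 hpf kcnk4a had 3, 0 and 1 counts and kcnk10a had 4, 13 and 0. Both thus had counts at 48 hpf only, as did 10.2% of all genes with any count. These counts are too few to compare the stages. Of 12 tested genes for other force-gated or volume-gated channels, edgeR called 0, had 0 at an unadjusted p below 0.05, and DESeq2 called 0, with a median log2 fold change of 0.14.

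Among the polycystins, pkd1a, which encodes the Polycystin-1 partner of Pkd2, had 53, 295 and 0 counts at 48 hpf, against 142, 129 and 36 at 72 hpf. As with pkd2, its highest library was replicate 2 at 48 hpf and replicate 1 at 72 hpf. At 72 hpf, however, replicates 1 and 2 of pkd1a were close (30.7 and 28.8 normalised CPM), unlike those of pkd2 (24.8 and 4.69). The share of all genes with this order was not counted. Its log2 fold change was 0.12 with an SE of 1.43 (adjusted p = 0.995, edgeR). The relatives pkd1b and pkd2l1 had at most 1 count in any library, and pkd1l2b had 2 to 3 counts at 48 hpf, against 6, 7 and 73 at 72 hpf. For 20 primary cilium genes, the compartment where Polycystin-2 resides in many cells, 0 were called, 0 were at an unadjusted p below 0.05 in edgeR, and DESeq2 called 0, with a median log2 fold change of -0.29. Of these, the intraflagellar transport gene ift88 had 135 to 343 counts at 48 hpf and 76 to 369 at 72 hpf, and the kinesin gene kif3a 431 to 712 and 462 to 688.

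Other Krüppel-like factor genes numbered 15 among the tested, and edgeR called 0 and DESeq2 0. At an unadjusted p below 0.05 edgeR had klf9, a factor known as a target of glucocorticoids, with a higher estimate (1.2, SE 0.40, adjusted p = 0.486), and klf5l with a lower one. The shares of all genes at that p were 3.12% higher and 5.61% lower. The counts of klf9 were 159, 87 and 119 at 48 hpf and 263, 226 and 290 at 72 hpf, without overlap, as for 7.24% of all genes. The flow-responsive relative klf4 had at most 27 counts in a library, and klf6a had 1278 to 2100 counts at 48 hpf and 911 to 1204 at 72 hpf (log2 fold change -0.38, adjusted p = 0.621, edgeR). In normalised CPM the stages of klf6a overlapped, at 295 to 374 and 197 to 337. The median log2 fold change of the 15 was -0.25.

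Upstream of Klf2, the Heg1-CCM proteins of endothelial junctions restrain a Mekk3, Mek5, Erk5 and Mef2 cascade that induces Klf2 genes. Of 20 such genes tested, edgeR called 0, and 2 were lower at an unadjusted p below 0.05 (5.61% of all genes), namely prkd2 and rasip1. DESeq2 called the same 2 lower, where it called 2.77% of all genes lower. The kinase gene prkd2, placed upstream of klf2a in zebrafish valve formation, had 546, 727 and 291 counts at 48 hpf, against 73, 241 and 182 at 72 hpf (log2 fold change -1.43, SE 0.46, adjusted p = 0.467 in edgeR and 0.0163 in DESeq2). Its stages did not overlap, as for 9.32% of all genes tested. The Rap1 effector gene rasip1 had 61, 52 and 9 counts against 2, 0 and 0. The endothelial receptor gene heg1 was low and uneven, with 25, 178 and 35 counts at 48 hpf, against 1, 25 and 63 at 72 hpf. Among the Mef2 transcription factor genes, mef2aa, mef2ca and mef2d had at least 680 counts in every library, and their log2 fold changes were 0.00, 0.25 and 0.21. Whether duplicate removal compressed them was not tested. Their relative mef2cb was uneven, with 476, 775 and 131 counts at 48 hpf, against 134, 344 and 356 at 72 hpf (-0.43). Both mef2ab and mef2b had at most 35 counts in a library. The Mek5 gene map2k5 had a log2 fold change of -0.96 (adjusted p = 0.565, edgeR).

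Of 26 tested genes that flow or Klf2 is known to regulate, edgeR called 0, had 4 lower and 0 higher at an unadjusted p below 0.05 (5.61% and 3.12% of all genes), and gave a median log2 fold change of -0.66. DESeq2 called 2 of them lower, has2 and twist1b, where it called 2.77% of all genes lower. The hyaluronan synthase gene has2, needed for the cardiac cushions, had 253, 914 and 259 counts at 48 hpf, against 16, 0 and 0 at 72 hpf (log2 fold change -6.28, SE 1.28, adjusted p = 0.320 in edgeR). The twist1b gene, a factor of cushion mesenchyme, had 475, 811 and 374 counts at 48 hpf, against 34, 94 and 123 at 72 hpf (log2 fold change -2.48, SE 0.53, adjusted p = 0.320 in edgeR). The endocardial receptor gene notch1b had 205, 369 and 109 counts at 48 hpf, against 392, 310 and 290 at 72 hpf (0.75, SE 0.33, adjusted p = 0.564, edgeR). The endothelin gene edn1 had 1 count in all libraries together. Of 10 tested genes of the junctional shear complex and its partners, edgeR called 0. At an unadjusted p below 0.05 it had 2, both lower, against 5.61% of all genes in that direction. Among these the Vegf receptor gene flt4 had 526, 1481 and 216 counts at 48 hpf, against 55, 113 and 38 at 72 hpf (-3.18, SE 0.62, adjusted p = 0.320 in edgeR). It was the 1 gene of this list that DESeq2 called, where 2.77% of all genes were called lower. The other gene at that unadjusted p was the integrin gene itga5 (-0.49, SE 0.16). Junction genes of the complex were thin, pecam1 having at most 1 count in any library and cdh5 having 47, 182 and 50 counts at 48 hpf, against 36, 116 and 26 at 72 hpf.

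Of 19 tested genes through which CMs respond to stretch, edgeR called 0, had 3 higher and 0 lower at an unadjusted p below 0.05 (3.12% and 5.61% of all genes), and gave a median log2 fold change of 0.12. The 3 were fhl2b and, near that threshold, xirp1 and flnca (log2 fold changes 0.39 and 0.54, adjusted p = 0.564 for both, edgeR). The LIM protein gene fhl2b had 14, 10 and 37 counts at 48 hpf, against 454, 341 and 118 at 72 hpf (3.82, SE 0.78, adjusted p = 0.320 in edgeR), and DESeq2 called it higher, as it did 1.15% of all genes. The natriuretic peptide genes nppa and nppb, known to rise with wall stretch in mammals, had log2 fold changes of 0.07 and 0.12 with SEs of 0.17 and 0.18. Their counts were nearly constant, at 2399 to 2632 (nppa) and 1162 to 1245 (nppb), while library totals ran from 3577234 to 5629941. Duplicate removal can compress abundant genes. Whether it held these counts level was not tested, so the small changes do not show a steady level. Among 23 tested genes that link the contractile apparatus to the matrix, edgeR and DESeq2 called 0. At an unadjusted p below 0.05 edgeR had 2 higher, against 3.12% of all genes. They were the talin gene tln1 (0.40, SE 0.10, adjusted p = 0.394) and the vinculin gene vclb (0.40, SE 0.12, adjusted p = 0.431). With DESeq2 the adjusted p was 0.00581 for tln1 and 0.0488 for vclb, but both changes fell short of 1.5-fold. The term "response to mechanical stimulus", which the table gives for pkd2, was held by 17 tested genes, of which edgeR called 0, had 0 at an unadjusted p below 0.05, and DESeq2 called 0. This term was chosen after the data were seen.

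**Figure D4:**
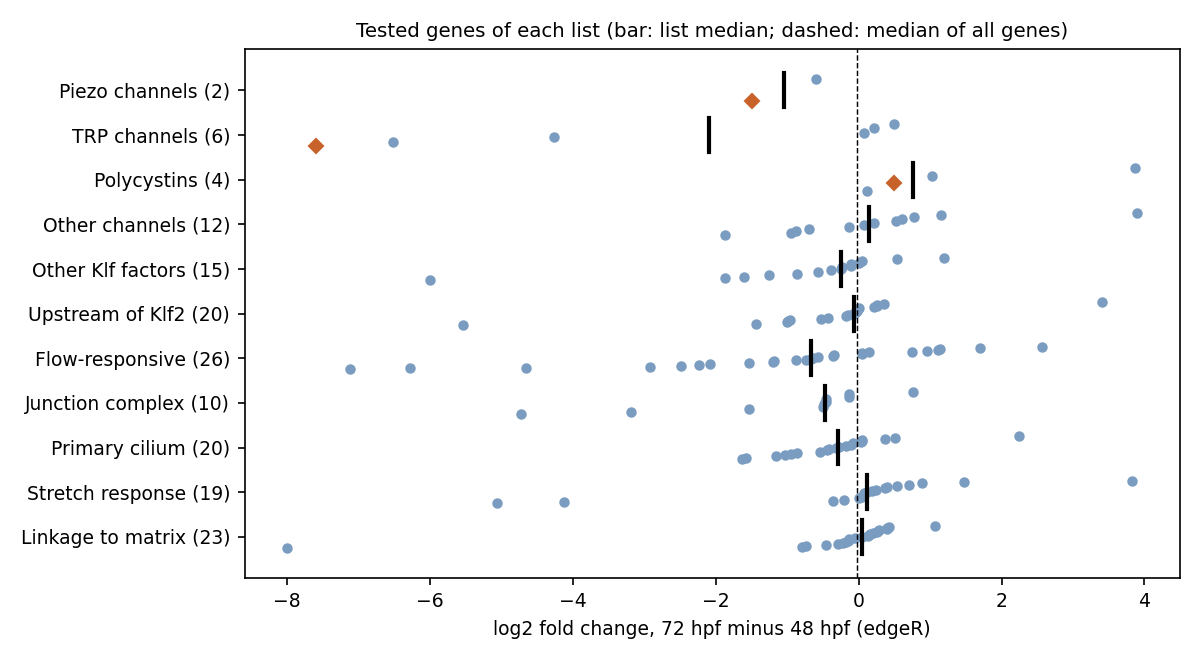
edgeR log2 fold change, 72 hpf minus 48 hpf, of the tested genes of each list (number in brackets), with orange diamonds for piezo1, trpv4 and pkd2, black bars for list medians and a dashed line for the median of all genes (-0.02). Medians run from -2.09 for the 6 TRP genes to 0.76 for the 4 polycystins, and both include members. The TRP genes are split: trpv4, trpc4a and trpv1, with few or no 72 hpf counts, are at -7.59, -6.52 and -4.27. In turn, trpc6a, trpa1a and trpm7 are at 0.08, 0.21 and 0.49. The SEs of the polycystins are 1.29 to 1.72.

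Over these lists together, without the members, 150 genes were tested. At an unadjusted p below 0.05, edgeR had 6 of them higher and 9 lower, against 3.12% and 5.61% of all genes tested, and it called 0. DESeq2 called 1 higher and 5 lower of 148, where its shares over all genes were 1.15% and 2.77%.

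Markers of other heart and blood cells also differed between the libraries. The 20 endothelial and endocardial markers summed to 500, 714 and 334 normalised CPM at 48 hpf and to 199, 552 and 191 at 72 hpf, with replicate 2 the highest in both stages, as for klf2a. Epicardial and neuronal sums were likewise highest in replicate 2 of both stages. For the epicardial markers that library had 1490 and 1460 normalised CPM, and for the neuronal markers 351 and 208. The sinoatrial sum had the same order, but at 48 hpf replicates 1 and 2 both rounded to 1140. It also shares tbx18 with the epicardial list. The endothelial receptor gene kdrl had 573, 1361 and 197 counts at 48 hpf, against 198, 1044 and 73 at 72 hpf. Of the 20 endothelial and endocardial markers, 5 (fli1a, fli1b, tie1, erg and she) were at 0 in all 72 hpf libraries. Over all genes with any count, 10.2% had counts at 48 hpf only. The marker fli1a had 152, 333 and 165 counts at 48 hpf, whereas erg and she had 9 and 8 counts in 1 library each. On the other side, nfatc1, an endocardial factor, and vwf were higher in every 72 hpf library than in any 48 hpf library. So were 7.24% of all genes tested. They had 10.1 to 47.3 normalised CPM against 53.1 to 69.0 (nfatc1) and 23.6 to 35.8 against 42.7 to 55.9 (vwf). Their log2 fold changes were 0.96 and 0.74 (adjusted p = 0.628 and 0.565, edgeR). The 14 leukocyte markers summed to 457 to 1030 normalised CPM at 48 hpf and to 48.2 to 189 at 72 hpf. Leukocyte, thrombocyte, epidermal and mesenchymal sums were lowest at 72 hpf in replicate 1 (48.2, 9.72, 92.7 and 550 normalised CPM), the library in which piezo1 was lowest. Epicardial and erythrocyte sums were also lowest there at that stage (855 and 4.32). The endothelial and neuronal sums of 72 hpf were instead lowest in replicate 3 (191 and 92.0, against 199 and 185 in replicate 1). The erythrocyte sum of 917 normalised CPM in replicate 3 of 48 hpf, against 4.32 to 215 in the other libraries, was not matched in replicate 3 of 72 hpf (11.2), while klf2b was highest in both. In replicate 3 the epidermal sum was the lowest of its stage at 48 hpf (249 normalised CPM) and the highest at 72 hpf (1810). Markers of the atrioventricular canal, whose cells carry the green signal that the sort gated out, summed to between 1100 and 1240 normalised CPM at 48 hpf and between 753 and 901 at 72 hpf. Immediate early genes, which tissue dissociation can raise, summed to 4880 to 5940 normalised CPM at 48 hpf and to 5100 to 5940 at 72 hpf, with replicate 3 the highest in both. Replicate 3 also had the smallest library total of each stage (3694451 and 3577234). In counts the order differed by gene: in replicate 3, jun was lowest at both stages (2035 and 2055) and nr4a1 highest at 48 hpf (1515). Whether duplicate removal and the small totals raised the sum in replicate 3 was not tested. The part of these markers in the levels of klf2a, klf2b and piezo1 was not tested.

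**Figure D5:**
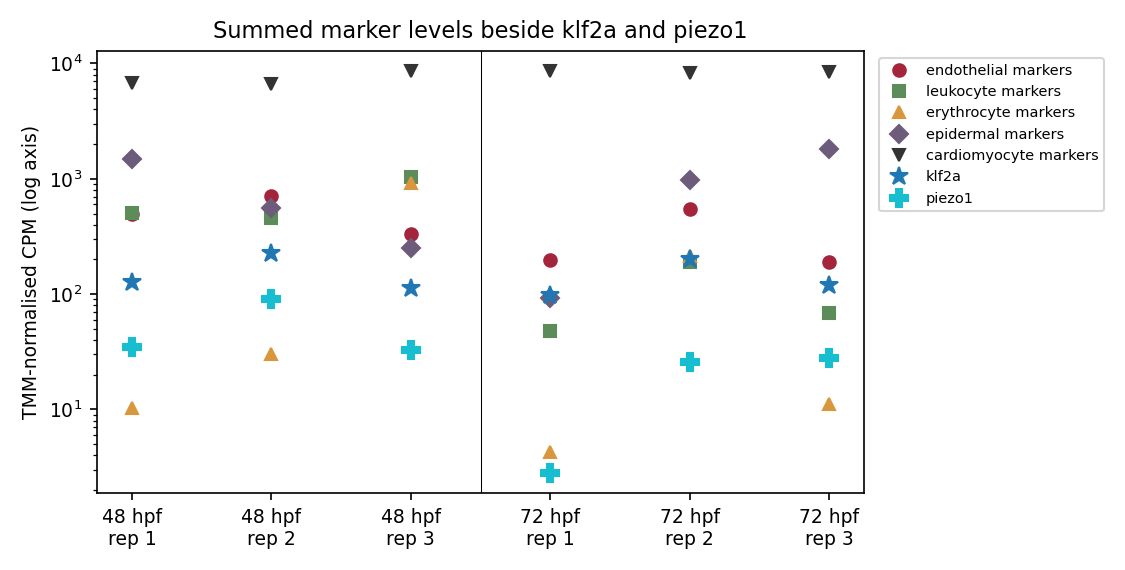
Summed normalised CPM of 5 marker lists in each library, with klf2a (stars) and piezo1 (plus signs) on the same log axis. The endothelial sum and klf2a are highest in replicate 2 of both stages (714 and 229 at 48 hpf, 552 and 200 at 72 hpf). Epicardial and neuronal sums, not drawn, are highest there too. The sinoatrial sum, not drawn, rounds to 1140 in both replicates 1 and 2 of 48 hpf. The lowest point of piezo1, 2.81, is in replicate 1 of 72 hpf, where the leukocyte sum is 48.2 and the endothelial sum 199. At 72 hpf the endothelial sum is lowest in replicate 3 (191).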

How the data were processed

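The authors deposited raw counts per gene, from low-input RNA that was not checked for quality. Per the study's methods, reads (single-end) were trimmed by Trimmomatic 0.39 and mapped to danRer11 by STAR 2.7.10a. Duplicates (Picard 3.0.0), ribosomal, mitochondrial and multi-mapping reads were taken out, and featureCounts 2.0.4 counted reads in exons unless they overlapped several genes. Duplicate removal can compress abundant genes, and the strand setting is not given in the sources used here.

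Each library took its stage from its label. Counts were tested with edgeR 4.0.16 (R 4.3.3; TMM, robust quasi-likelihood, Benjamini-Hochberg adjustment over all genes with a mean normalised count above 5), at the study's thresholds (adjusted p of 0.05, change of 1.5-fold). The SE is the absolute log2 fold change over the root of F. A floor of 3 counts was 0.533 to 0.839 CPM per library. Alternatives were DESeq2 1.42.0, limma 3.58.1 with voom, other filters and scaling, a replicate block, a sorter covariate and leaving out libraries. The within-sorter shares and the other ratios to the floor for trpv4 were added after the data were seen. The fits were checked on simulated counts in which 200 genes were altered. Of these genes edgeR recovered 91, with 4 false calls, and voom recovered 64, with 2. DESeq2 recovered 122, with 174 false calls. The altered genes changed by more than the main edgeR estimate of any member but trpv4, so the recovery does not carry over to smaller changes. The counts were drawn with dispersions that edgeR had estimated, so the tools were not compared on even terms.

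Members and lists were chosen with earlier results of these data known. Named are the 5 members, list genes that were called or had the smallest p or that define a list, and the nearest profiles. Others, such as ift88, kif3a, klf4, klf6a, heg1, itga4, trpm7, trpa1a, the mef2 genes, nppa and nppb, were picked after their values were seen. Sequences were not used here.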

Additional observations from a re-analysis of the deposited data

How the results depend on the processing

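Every fit called 0 of the 5 members in either direction, with trpv4 untested in 2 of the fits; the lowest adjusted p over the alternatives was 0.644 for klf2a, 0.59 for klf2b, 0.256 for piezo1, 0.0977 for trpv4 and 0.863 for pkd2. A missed call does not show equal levels. Leaving out 1 library at a time moved the log2 fold change from -0.52 to 0.22 for klf2a, from -1.67 to 0.10 for klf2b, from -1.88 to -0.84 for piezo1 and from -0.98 to 2.09 for pkd2. The difference in mean normalised CPM then ran from -47.2 to 19.1 for klf2a, from -50.1 to 3.4 for klf2b, from -43.8 to -15.0 for piezo1, from -8.10 to -2.66 for trpv4 and from -3.81 to 8.33 for pkd2, and the difference in klf2a share from -3.35 to 18.3 points. The cause of these sign changes was not tested beyond the library left out.

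Over all genes, edgeR's 1 higher and 0 lower calls became 181 and 437 with DESeq2 and 2 and 9 with no filter. The higher count was 0 with voom, with the sorter as a covariate, with the replicate block and with replicates 1 and 2 only, a setting chosen after the data were seen, and 0 to 1 with 1 library left out. In the lists around the members DESeq2 called 1 higher and 5 lower where edgeR called 0. Nothing in the sources ties same-numbered libraries to shared animals or days, though replicate 3 differed from the others in its sorting at both stages. They did not deviate together in every pair (correlations of deviations -0.008, 0.094 and 0.01), and the block moved the log2 fold change of klf2b to -0.79 (adjusted p = 0.59, edgeR) and that of piezo1 to -1.84 (adjusted p = 0.596, edgeR).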
